A study of Homo sapiens with 16 samples.

Results

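The 36 genes described here carry out homologous recombination and the Fanconi anemia pathway of crosslink repair. They were taken by symbol from a list of 36 names out of the 23228 gene rows of each count file, and each name matched a row. All 36 passed the filter on low counts, which left 13948 genes in the tests. RNA was sequenced from MDA-MB-231, an established human breast cancer line without oestrogen receptor, so all groups share the genotype of 1 line. The control groups received DMSO, the solvent. The MMS groups received methyl methanesulfonate, which puts methyl groups on DNA bases. The sorafenib groups received the kinase inhibitor sorafenib at 1 µM. The combination groups received 1 µM sorafenib for 12 h and then MMS. Each of the 4 treatments was sampled at 8 h and 24 h. In the combination the time was counted from MMS. The sources do not say whether sorafenib stayed on the cells after MMS was added, so the length of sorafenib exposure may differ between the combination and sorafenib alone. The sources give the MMS dose as 40 µg/mL in one place and 40 µM in another, and these are not the same dose. The 8 groups hold 2 libraries each, from a pair of experiments that the series text calls independent. Replicate 1 is the library whose title starts with MDA231 and replicate 2 the one starting with MDAMB231.

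Homologous recombination repairs a broken chromosome or fork by copying an intact sister. The ends are cut back to single strands, BRCA1 and BRCA2 with their partners prepare these strands to pair with the sister, and helicases and nucleases take the joined molecules apart. In the Fanconi pathway a nuclear core complex and the conjugating enzyme UBE2T attach ubiquitin to the FANCD2 and FANCI pair at a crosslink, after which nucleases unhook it and recombination completes the repair. Many of these genes are transcribed mainly in S and G2 phase. MMS mostly methylates purines, and the resulting lesions can stall replication forks, the substrates on which recombination acts.

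Libraries held 16774156 to 26448212 counts in genes (median 20348720). Levels are given as CPM, the counts of a gene scaled to a common total of gene counts per library, which are not divided by gene length and so do not rank one gene against another. Changes are log2 fold changes with their standard errors (SE) from edgeR's quasi-likelihood test, and adjusted p is over all 13948 genes by Benjamini-Hochberg with a threshold of 0.05. Values written as a number ± its SE are such log2 changes. Where a fit with the title start as a replicate block changed a call, its adjusted p is added as the value with the block. A gene rose or fell only if it passed that threshold. Of the cell type markers, VIM, a mesenchymal filament gene that is high in this line, lay at 1479 to 2476 CPM. ESR1, which encodes the oestrogen receptor, lay at 0 to 0.224 CPM, the progesterone receptor gene PGR at 0.151 to 0.674 CPM and the epithelial cadherin gene CDH1 at 0.241 to 9.34 CPM. The leukocyte marker PTPRC lay at 0.0874 to 1.36 CPM and the endothelial marker PECAM1 at 0.417 to 6.81 CPM.

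Promoter sequences are shown for 6 members that rose together under MMS at 24 h (values further on), because cell cycle genes of this kind often carry E2F and CCAAT elements. They are the 6 with the smallest p at 24 h whose window held a searched motif. The windows come from RefSeq promoter tables on GRCh38.p14, a later build than the hg19 of the counts, and run from 160 bases before the annotated transcription start to 30 bases from it. XRCC3 lies at chr14:103715422-103715611 (minus strand), RAD51AP1 at chr12:4538730-4538919 (plus strand), XRCC2 at chr7:152676112-152676301 (minus strand), FANCG at chr9:35079913-35080102 (minus strand), EXO1 at chr1:241848044-241848233 (plus strand) and UBE2T at chr1:202341907-202342096 (minus strand). Letters are written 5′ to 3′ on the gene's strand. Capitals mark matches, on either strand, to E2F letters (TTCCCGC and its variants TTGGCGC and also TTCGCGC and also TTGCCGC), to CHR letters (TTTGAA or TTCGAA, the cell cycle genes homology region) or to CCAAT.
XRCC3: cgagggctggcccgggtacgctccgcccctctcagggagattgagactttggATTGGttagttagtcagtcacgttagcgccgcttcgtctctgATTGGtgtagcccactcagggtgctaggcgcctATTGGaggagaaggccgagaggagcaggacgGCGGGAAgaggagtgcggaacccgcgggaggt
RAD51AP1: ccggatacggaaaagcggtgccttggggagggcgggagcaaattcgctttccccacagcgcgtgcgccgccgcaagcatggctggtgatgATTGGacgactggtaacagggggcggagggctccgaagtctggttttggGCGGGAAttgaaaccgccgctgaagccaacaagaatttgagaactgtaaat
XRCC2: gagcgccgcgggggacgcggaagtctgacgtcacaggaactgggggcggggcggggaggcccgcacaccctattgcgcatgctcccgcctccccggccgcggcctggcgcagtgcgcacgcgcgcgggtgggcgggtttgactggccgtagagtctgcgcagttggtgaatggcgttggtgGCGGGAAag
FANCG: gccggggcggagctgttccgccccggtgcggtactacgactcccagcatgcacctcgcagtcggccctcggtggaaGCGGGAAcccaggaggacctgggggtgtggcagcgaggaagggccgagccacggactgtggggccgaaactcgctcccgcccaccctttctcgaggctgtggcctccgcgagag
EXO1: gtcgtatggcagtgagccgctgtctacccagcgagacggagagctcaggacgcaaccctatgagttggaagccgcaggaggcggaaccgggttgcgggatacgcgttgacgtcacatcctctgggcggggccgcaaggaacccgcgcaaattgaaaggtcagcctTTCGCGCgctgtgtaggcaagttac
UBE2T: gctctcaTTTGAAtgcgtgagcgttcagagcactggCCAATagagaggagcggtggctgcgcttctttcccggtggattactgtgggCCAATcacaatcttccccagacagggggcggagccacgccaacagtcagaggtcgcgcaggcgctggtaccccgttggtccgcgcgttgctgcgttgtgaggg

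XRCC3, RAD51AP1, XRCC2 and FANCG each show the letters GCGGGAA, which are TTCCCGC read on the other strand, at 2, 21 and 84 bases before the start in XRCC3, RAD51AP1 and FANCG and 21 bases after it in XRCC2. EXO1 shows TTCGCGC 5 bases after its start. UBE2T shows no E2F letters but 1 CHR match and 2 CCAAT matches, and XRCC3 shows 3 CCAAT matches in the printed stretch. The full windows of 300 bases were searched for 32 of the 36 members. RAD54B, NBN, WRN and FANCI had no entry. E2F letters stood in 19 of 32 member windows (59.4%), against 13% of all 35114 promoters and 16.1% of the 22197 promoters of protein-coding genes. The share was 57.9% (11 of 19) in members that rose at 24 h and 61.5% (8 of 13) in those that did not pass. CCAAT stood in 13 of 32 member windows (40.6%, against 34.6% of all promoters) and CHR letters in 3 of 32 (9.38%, against 16.4%). No searched string contains another, and a match describes letters, not a bound factor.

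Under MMS alone, 9 of the 36 members rose at 8 h and none fell, and 27 did not pass. At 24 h 21 rose, none fell and 15 did not pass. Of all genes tested, 26.5% passed at 8 h (14.5% higher and 12% lower) and 31.5% at 24 h (15.2% higher and 16.3% lower). Of the members 25% passed at 8 h, a share near that of all genes, and 58.3% at 24 h. The median member change was 0.13 at 8 h, against -0.004 over all genes, and 0.40 at 24 h, against 0.003. Rises were moderate: the highest were 1.84-fold at 8 h, in BRCA2, and 1.89-fold at 24 h, in XRCC3. In the fit without the block, both times had 7 of the rising members in common, 2 passed only at 8 h (PALB2 and RMI1), 14 only at 24 h and 13 at neither. This split depends on the fit. With the block BRCA1, XRCC2, XRCC3 and RBBP8 also rose at 8 h and PALB2 at 24 h, while FANCG and MUS81 fell at 8 h and WRN at 24 h. With the title start as a replicate block, 13 members rose and 2 fell at 8 h, where 6036 of 13948 genes passed, 3122 higher and 2914 lower. At 24 h with the block 22 members rose and 1 fell, where 6730 genes passed, 3212 higher and 3518 lower. Without a TMM factor 7 members rose and 1 fell at 8 h, where 3743 of all genes passed. In every fit without 1 library, fewer members passed than in the fit of all 16 libraries, at both times. Fewer of all genes passed in each of those fits too.

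**Figure D1:**
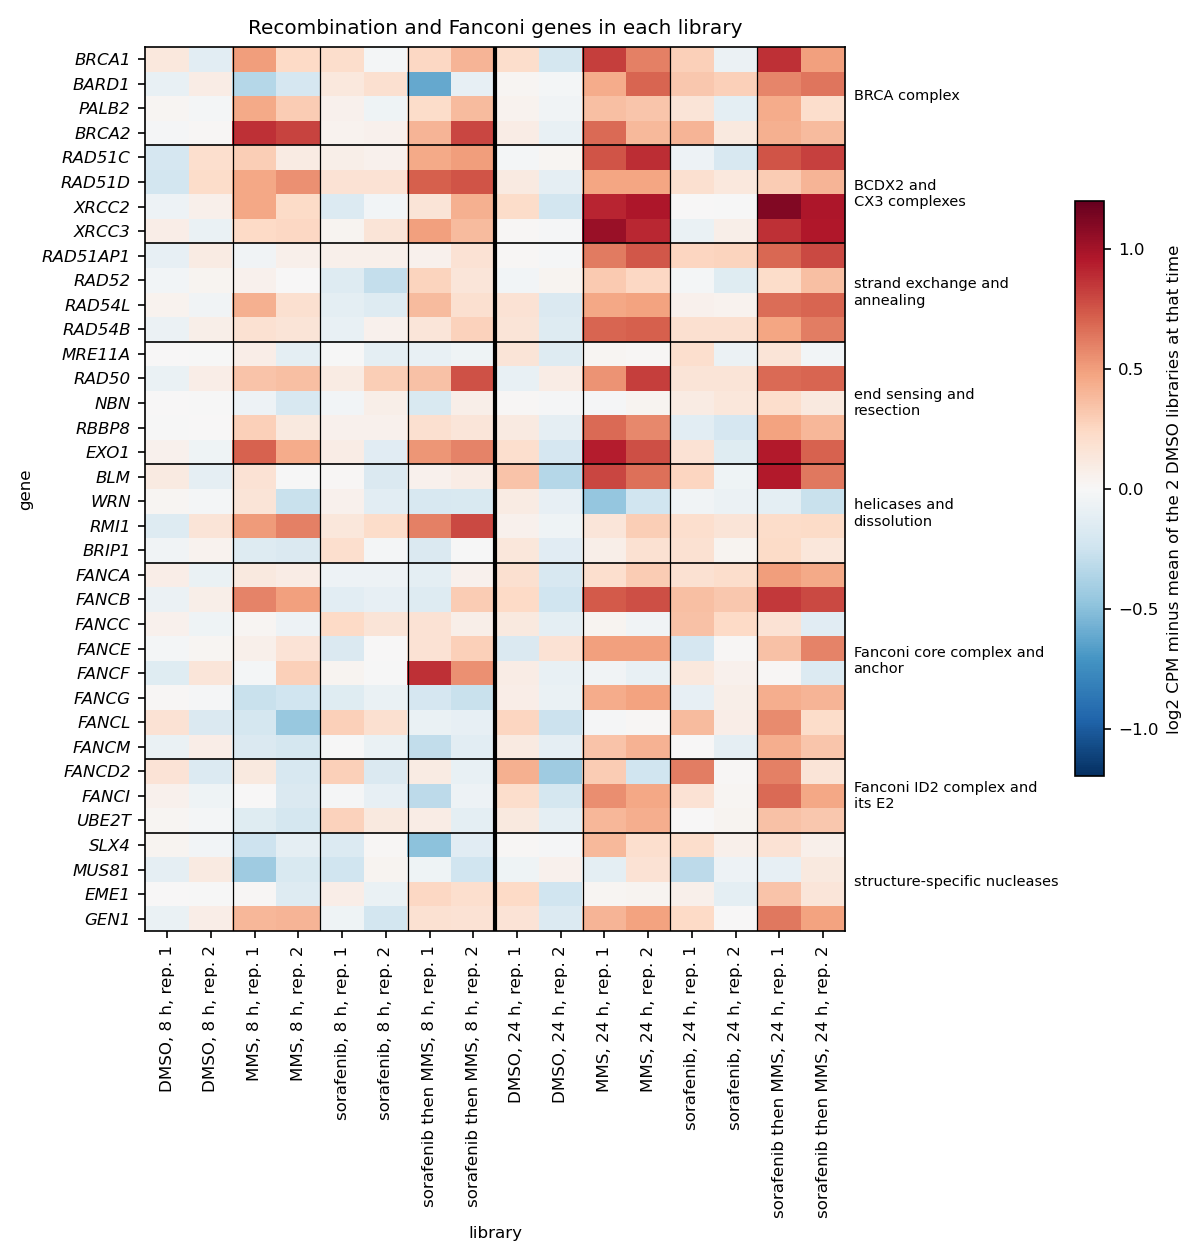
Each row is 1 of the 36 genes and each column 1 of the 16 libraries, labelled with its treatment and replicate (sorafenib then MMS is the combination). Colour is log2 CPM minus the mean log2 CPM of the 2 DMSO libraries of the same time. At 24 h both MMS libraries are above the DMSO mean in 29 of 36 rows and both combination libraries in 31, which describes the colours and is no count of calls. These CPM carry no TMM factor, and the like share over all genes was not computed, so the counts have no background to be read against.

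**Figure D2:**
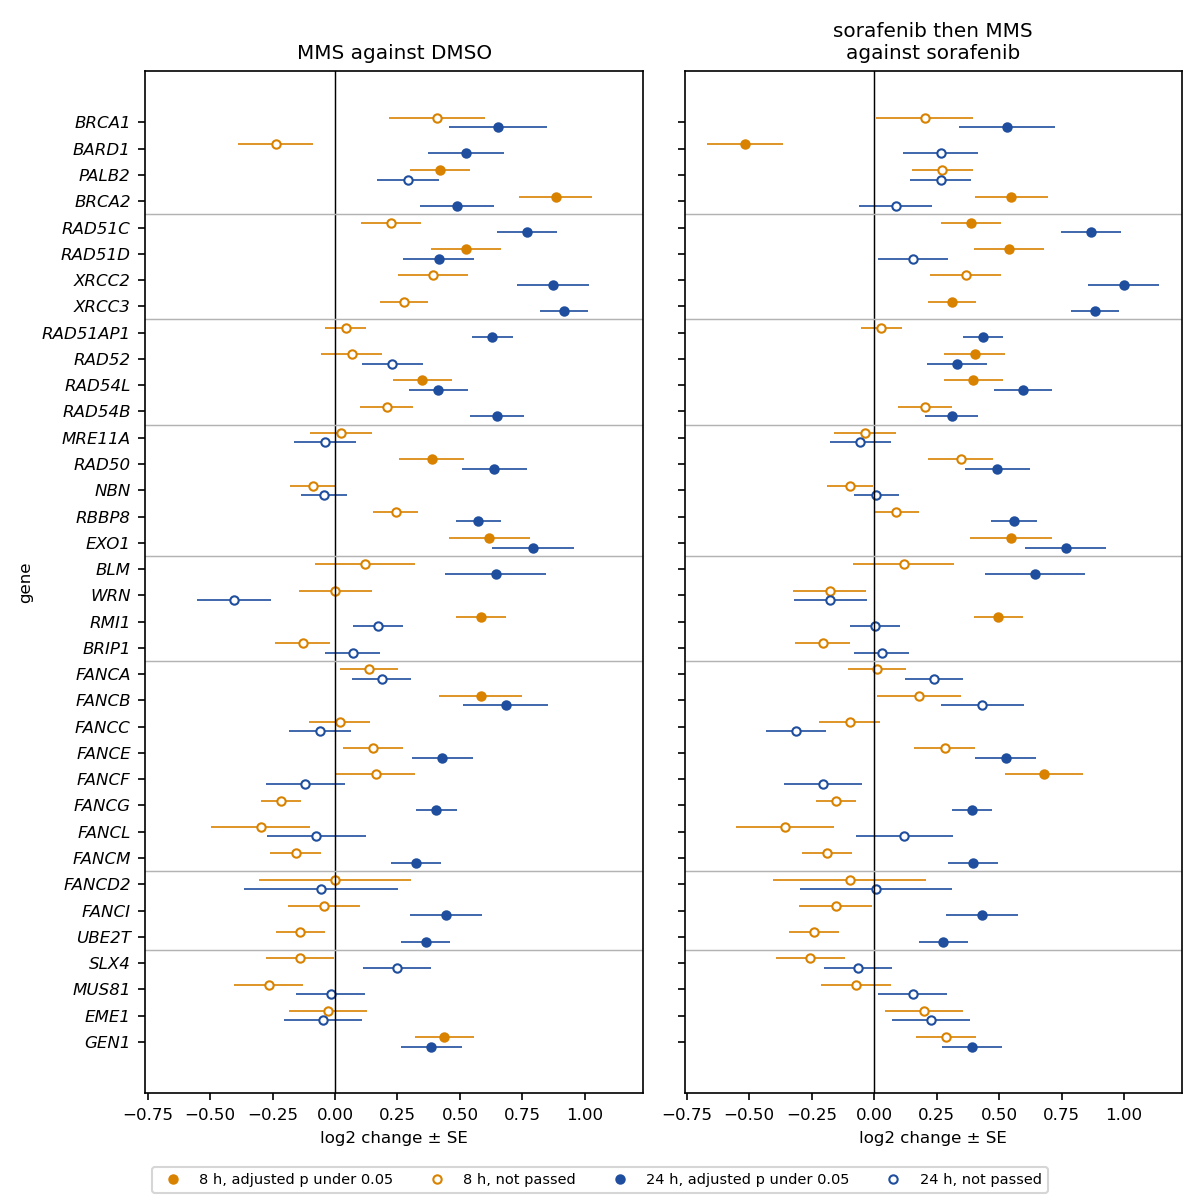
Points are log2 changes with SE bars for MMS against DMSO (left) and for the combination against sorafenib (right), at 8 h in orange and 24 h in blue. Filled points passed the threshold, and grey lines separate the roles. At 24 h 21 points are filled on the left and 18 on the right, all above 0.

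Among the 4 genes of the BRCA complexes, 2 rose at 8 h and 3 at 24 h, and BRCA2 rose at both. BRCA2, which binds single-stranded DNA at the break with its partner PALB2, had 56.5 and 57.3 CPM in the DMSO libraries and 104 and 99.999 CPM in the MMS libraries at 8 h, and 46.2 and 40.9 CPM against 69.7 and 56.9 CPM at 24 h. Both MMS libraries lay above both DMSO libraries at each time, with log2 changes of 0.88 ± 0.15 (adjusted p = 0.000797) at 8 h and 0.49 ± 0.15 (adjusted p = 0.0253) at 24 h. PALB2, which joins BRCA1 to BRCA2, had 29.5 and 28.7 CPM in the DMSO libraries and 39.9 and 35.9 CPM in the MMS libraries at 8 h, and 24.8 and 23.2 CPM against 30.8 and 30.2 CPM at 24 h. Its groups did not overlap at either time, and it rose at 8 h by 0.42 ± 0.12 (adjusted p = 0.0232) but did not pass at 24 h (0.29 ± 0.12, adjusted p = 0.0922; adjusted p = 0.0257 with the block). BRCA1, a ubiquitin ligase that promotes resection of broken ends, had 73.4 and 61.2 CPM in the DMSO libraries and 94.8 and 79.2 CPM in the MMS libraries at 8 h, and 70.2 and 52.2 CPM against 107 and 91.97 CPM at 24 h. Replicate 1 was the higher library in every one of these pairs, and BRCA1 passed at 24 h (0.65 ± 0.19, adjusted p = 0.0233) but not at 8 h (0.41 ± 0.19, adjusted p = 0.147; adjusted p = 0.00401 with the block). BARD1, the partner of BRCA1 in the ligase, had 18.9 and 21.5 CPM in the DMSO libraries and 15.9 and 17.5 CPM in the MMS libraries at 8 h, and 14.4 and 13.9 CPM against 19.2 and 22.9 CPM at 24 h. It lay below DMSO at 8 h without passing (-0.24 ± 0.15, adjusted p = 0.285) and above it at 24 h, where it rose by 0.53 ± 0.15 (adjusted p = 0.0203). The 8 h call of BRCA2 held in all 4 fits without 1 library, whereas PALB2 did not pass in any of the 4 fits without 1 library (adjusted p from 0.05399 to 0.161). At 24 h BRCA1 did not pass with MMS replicate 1 (adjusted p = 0.1505) or DMSO replicate 2 (0.178) left out, BRCA2 with MMS replicate 1 (adjusted p = 0.194) or DMSO replicate 2 (0.138) left out and BARD1 with DMSO replicate 1 (adjusted p = 0.0617), DMSO replicate 2 (0.0836) or MMS replicate 2 (0.0983) left out.

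RAD51C, RAD51D, XRCC2 and XRCC3, subunits of the BCDX2 and CX3 complexes that act in strand pairing, all rose at 24 h, and 1 rose at 8 h. XRCC3 had 51.9 and 46.5 CPM in the DMSO libraries and 57.96 and 58.2 CPM in the MMS libraries at 8 h, and 46.996 and 45.9 CPM against 94.98 and 86.8 CPM at 24 h. Both MMS libraries were above all DMSO libraries at both times, and the change was 0.92 ± 0.10 (adjusted p = 6.07e-05) at 24 h against 0.28 ± 0.10 (adjusted p = 0.0507) at 8 h, which did not pass (0.01702 with the block). RAD51C, which works with XRCC3, had 17.7 and 23.4 CPM in the DMSO libraries and 24.99 and 21.9 CPM in the MMS libraries at 8 h, and 23.7 and 24.5 CPM against 40.6 and 44.6 CPM at 24 h. Its groups overlapped at 8 h (0.22 ± 0.12, adjusted p = 0.199) and were well apart at 24 h (0.77 ± 0.12, adjusted p = 0.000622). XRCC2 had 33.2 and 36.1 CPM in the DMSO libraries and 47.8 and 40.7 CPM in the MMS libraries at 8 h, and 31.5 and 23.2 CPM against 51.1 and 52.8 CPM at 24 h. The groups were apart at both times, and XRCC2 rose at 24 h (0.87 ± 0.14, adjusted p = 0.000892) but did not pass at 8 h (0.39 ± 0.14, adjusted p = 0.0601; adjusted p = 0.0149 with the block). RAD51D, which works with XRCC2, was low, with 7.75 and 10.5 CPM in the DMSO libraries and 12.4 and 13.2 CPM in the MMS libraries at 8 h, and 9.39 and 8.06 CPM against 12.1 and 12.1 CPM at 24 h. It rose by 0.52 ± 0.14 (adjusted p = 0.016001) at 8 h and 0.41 ± 0.14 (adjusted p = 0.0437) at 24 h. The 24 h calls of XRCC3, RAD51C and XRCC2 held in all 4 fits without 1 library. RAD51D did not pass with DMSO replicate 1 (adjusted p = 0.1904), MMS replicate 1 (0.0511) or MMS replicate 2 (0.105) left out at 8 h, nor with MMS replicate 1 (adjusted p = 0.141), DMSO replicate 2 (0.221) or MMS replicate 2 (0.0882) left out, or with DESeq2 (0.0658), at 24 h. Of the exon bases of XRCC3, 45.3% are shared with KLC1 on the opposite strand (GENCODE v29, GRCh38), and the strand setting of the counts is not given in the sources used here, so that reads from opposite-strand partners cannot be told apart. KLC1 itself changed by 0.27 ± 0.08 (adjusted p = 0.0282) at 8 h and by -0.19 ± 0.08 (adjusted p = 0.102) at 24 h, where it did not pass.

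**Figure D3:**
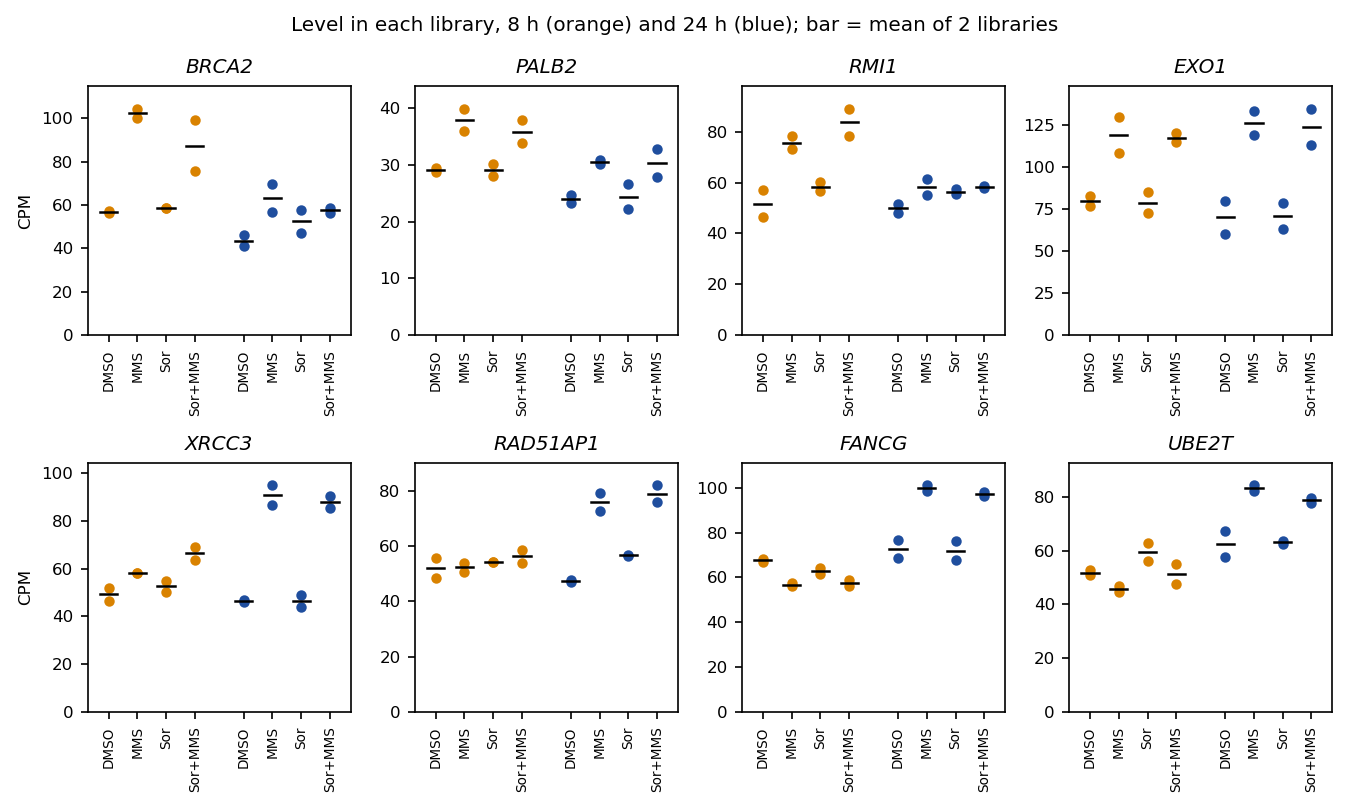
Points are CPM in each library for 8 members, at 8 h in orange and 24 h in blue, under DMSO, MMS, sorafenib (Sor) and sorafenib followed by MMS (Sor+MMS); bars are the means of 2 libraries. BRCA2, PALB2 and RMI1 stand highest in the MMS or combination libraries at 8 h, and XRCC3, RAD51AP1, FANCG and UBE2T in those at 24 h.

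Of the 4 strand exchange and annealing genes, 1 rose at 8 h and 3 at 24 h. RAD51AP1, which stimulates strand pairing, had 48.4 and 55.8 CPM in the DMSO libraries and 50.6 and 54.1 CPM in the MMS libraries at 8 h, and 47.7 and 46.97 CPM against 72.8 and 79.2 CPM at 24 h. The groups overlapped at 8 h (0.04 ± 0.08, adjusted p = 0.753) and were apart at 24 h, where RAD51AP1 rose by 0.63 ± 0.08 (adjusted p = 0.000234). RAD54L, a motor protein that moves along DNA during strand exchange, had 40.4 and 37.99 CPM in the DMSO libraries and 52.5 and 44.6 CPM in the MMS libraries at 8 h, and 47.9 and 37.8 CPM against 58.7 and 59.7 CPM at 24 h. The MMS libraries were higher at both times, and it rose by 0.35 ± 0.12 (adjusted p = 0.0452) and 0.41 ± 0.12 (adjusted p = 0.0187). RAD54B, its relative, had 34.7 and 38.3 CPM in the DMSO libraries and 41.4 and 40.7 CPM in the MMS libraries at 8 h, and 33.6 and 26.98 CPM against 49.03 and 49.4 CPM at 24 h. RAD54B passed at 24 h (0.65 ± 0.11, adjusted p = 0.000998; not at 8 h, 0.21 ± 0.11, adjusted p = 0.187), and its 24 h call and that of RAD51AP1 held in all 4 fits without 1 library. RAD54B shares 63.3% of its exon bases with FSBP on the same strand, and FSBP was not analysed here. RAD54L did not pass in any of the 4 fits without 1 library (adjusted p from 0.0531 to 0.319) or with RLE factors (0.0581) or no TMM factor (0.06404) at 8 h, nor with MMS replicate 1 (adjusted p = 0.0854), DMSO replicate 2 (0.163) or MMS replicate 2 (0.0566) left out at 24 h. RAD54L shares 18% of its exon bases with LRRC41 on the opposite strand, which changed by 0.25 ± 0.08 (adjusted p = 0.0265) at 8 h and 0.03 ± 0.08 (adjusted p = 0.821) at 24 h.

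Among the 5 genes of end sensing and resection, 2 rose at 8 h and 3 at 24 h. EXO1, a nuclease of long-range resection, had 82.9 and 76.99 CPM in the DMSO libraries and 130.2 and 109 CPM in the MMS libraries at 8 h, and 80.1 and 60.5 CPM against 133 and 119.1 CPM at 24 h. Both MMS libraries lay above both DMSO libraries at each time, with changes of 0.62 ± 0.16 (adjusted p = 0.0143) and 0.79 ± 0.16 (adjusted p = 0.00338). RBBP8, which encodes the resection factor CtIP, had 147 and 149 CPM in the DMSO libraries and 180.01 and 161 CPM in the MMS libraries at 8 h, and 139.6 and 120.1 CPM against 208 and 193 CPM at 24 h. It rose at 24 h by 0.57 ± 0.09 (adjusted p = 0.000754) and did not pass at 8 h (0.24 ± 0.09, adjusted p = 0.0697; adjusted p = 0.008904 with the block). RAD50, of the MRE11 complex that senses ends, had 57.1 and 63.4 CPM in the DMSO libraries and 76.5 and 77.03 CPM in the MMS libraries at 8 h, and 55.1 and 62.2 CPM against 85.2 and 104 CPM at 24 h. It rose by 0.39 ± 0.13 (adjusted p = 0.0441) at 8 h and 0.64 ± 0.13 (adjusted p = 0.00317) at 24 h, while the other subunits of that complex, MRE11A and NBN, did not pass at either time (at 24 h -0.04 ± 0.12, adjusted p = 0.837 and -0.04 ± 0.09, adjusted p = 0.759). The 24 h calls of EXO1, RBBP8 and RAD50 held in all 4 fits without 1 library. RAD50 shares 90.6% of its exon bases with the annotated gene AC116366.3 on the same strand, which was not analysed here. At 8 h EXO1 did not pass with DMSO replicate 1 (adjusted p = 0.0567), MMS replicate 1 (0.122) or DMSO replicate 2 (0.1002) left out, and RAD50 did not pass in any of the 4 fits without 1 library (adjusted p from 0.0938 to 0.212) or with no TMM factor (0.0775).

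The 4 helicase and dissolution genes gave 1 rise at each time, in different genes. RMI1, which steadies the complex that dissolves joined molecules, had 46.3 and 57.2 CPM in the DMSO libraries and 73.1 and 78.1 CPM in the MMS libraries at 8 h, and 51.6 and 47.99 CPM against 55.1 and 61.3 CPM at 24 h. It rose at 8 h by 0.58 ± 0.10 (adjusted p = 0.0009703), in all 4 fits without 1 library, and at 24 h its MMS libraries were only just above DMSO (0.17 ± 0.10, adjusted p = 0.2199). BLM, the helicase of that complex, had 36.96 and 31.6 CPM in the DMSO libraries and 38.5 and 34.1 CPM in the MMS libraries at 8 h, and 35.4 and 22.04 CPM against 48.9 and 44.3 CPM at 24 h. Its groups overlapped at 8 h (0.12 ± 0.20, adjusted p = 0.7196) and it rose at 24 h by 0.64 ± 0.20 (adjusted p = 0.0295), but it did not pass with MMS replicate 1 (adjusted p = 0.151) or DMSO replicate 2 (0.225) left out. WRN, a related helicase, lay below DMSO in both MMS libraries at 24 h, at 14.7 and 17.2 CPM against 21.7 and 19.03 CPM. It did not pass (-0.41 ± 0.15, adjusted p = 0.0547; adjusted p = 0.0135 with the block).

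Of the 8 genes of the Fanconi core complex and its anchor, 1 rose at 8 h and 4 at 24 h. FANCB, a core subunit, had 14.5 and 16.1 CPM in the DMSO libraries and 23.2 and 21.5 CPM in the MMS libraries at 8 h, and 14.1 and 10.1 CPM against 19.9 and 20.5 CPM at 24 h. It rose by 0.58 ± 0.17 (adjusted p = 0.02198) and 0.68 ± 0.17 (adjusted p = 0.00942). FANCG had 68.4 and 66.9 CPM in the DMSO libraries and 56.2 and 57.3 CPM in the MMS libraries at 8 h, and 76.9 and 68.4 CPM against 98.6 and 101 CPM at 24 h. The MMS libraries were below both DMSO libraries at 8 h (-0.22 ± 0.08, adjusted p = 0.0685, not passed; adjusted p = 0.0339 with the block) and above them at 24 h (0.41 ± 0.08, adjusted p = 0.00276). FANCE, which links the core to FANCD2, had 73.1 and 75.6 CPM in the DMSO libraries and 77.6 and 83.4 CPM in the MMS libraries at 8 h, and 50.5 and 64.2 CPM against 79.9 and 80.3 CPM at 24 h. It rose at 24 h (0.43 ± 0.12, adjusted p = 0.0187; at 8 h 0.15 ± 0.12, adjusted p = 0.408), where its 2 DMSO libraries were below those of 8 h. FANCM, the translocase that anchors the complex on DNA, had 34.8 and 38.6 CPM in the DMSO libraries and 32.5 and 31.6 CPM in the MMS libraries at 8 h, and 35.3 and 30.5 CPM against 41.5 and 43.96 CPM at 24 h. It was below DMSO at 8 h without passing (-0.16 ± 0.10, adjusted p = 0.289) and rose at 24 h (0.32 ± 0.10, adjusted p = 0.0286). Only the 24 h call of FANCG, of these 5 calls, held in all 4 fits without 1 library. FANCB did not pass in any of the 4 fits without 1 library (adjusted p from 0.0634 to 0.136) at 8 h, nor with DMSO replicate 2 (adjusted p = 0.0761) left out at 24 h. At 24 h FANCE did not pass with DMSO replicate 1 (adjusted p = 0.152) or MMS replicate 1 (0.0612) left out, and FANCM with MMS replicate 1 (adjusted p = 0.0822), DMSO replicate 2 (0.187) or MMS replicate 2 (0.0912) left out.

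The ubiquitin step gave no rise at 8 h and 2 of 3 at 24 h. FANCI had 118.9 and 110.2 CPM in the DMSO libraries and 115 and 101 CPM in the MMS libraries at 8 h, and 127 and 94.6 CPM against 161 and 152 CPM at 24 h. Its groups overlapped at 8 h (-0.04 ± 0.14, adjusted p = 0.867) and it rose at 24 h by 0.44 ± 0.14 (adjusted p = 0.034999). UBE2T, the conjugating enzyme, had 52.7 and 50.9 CPM in the DMSO libraries and 46.9 and 44.8 CPM in the MMS libraries at 8 h, and 67.6 and 57.6 CPM against 82.5 and 84.5 CPM at 24 h. UBE2T lay below DMSO at 8 h without passing (-0.14 ± 0.10, adjusted p = 0.345) and rose at 24 h by 0.36 ± 0.10 (adjusted p = 0.0143). FANCD2, the partner of FANCI, had 41.9 and 33.5 CPM in the DMSO libraries and 40.5 and 32.8 CPM in the MMS libraries at 8 h, and 44.9 and 24.8 CPM against 41.3 and 28.4 CPM at 24 h. Its groups overlapped at both times (0.00 ± 0.30, adjusted p = 0.999 and -0.06 ± 0.31, adjusted p = 0.916), and replicate 1 exceeded replicate 2 in each. At 24 h FANCI did not pass with MMS replicate 1 (adjusted p = 0.163), DMSO replicate 2 (0.253) or MMS replicate 2 (0.0541) left out, and UBE2T with MMS replicate 1 (adjusted p = 0.0723), DMSO replicate 2 (0.132) or MMS replicate 2 (0.0505) left out. FANCI shares 8.33% of its exon bases with POLG on the opposite strand, which rose at 24 h by 0.61 ± 0.09 (adjusted p = 0.000567).

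Among the 4 structure-specific nuclease genes, GEN1, a resolvase of joined molecules, rose at both times. GEN1 had 36.2 and 40.4 CPM in the DMSO libraries and 50.3 and 50.8 CPM in the MMS libraries at 8 h, and 34.1 and 27.1 CPM against 40.4 and 42.6 CPM at 24 h. The changes were 0.44 ± 0.12 (adjusted p = 0.0172) at 8 h and 0.39 ± 0.12 (adjusted p = 0.0297) at 24 h, and GEN1 did not pass with DMSO replicate 1 (adjusted p = 0.161), MMS replicate 1 (0.0717) or MMS replicate 2 (0.1002) left out at 8 h, nor with MMS replicate 1 (adjusted p = 0.0963), DMSO replicate 2 (0.234) or MMS replicate 2 (0.0969) left out at 24 h. MUS81, the nuclease partner of EME1, lay at 29.04 and 34.4 CPM under MMS at 8 h against 36.2 and 41.98 CPM (-0.27 ± 0.14, adjusted p = 0.188; adjusted p = 0.0366 with the block, where it fell).

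The 13 members that passed at neither time and not in the difference between times span a range of levels. Over all 16 libraries, the annealing factor RAD52 lay at 8.43 to 12.8 CPM, median 10.4, MRE11A at 67.9 to 90.4 CPM, median 74.4 and NBN at 124 to 171 CPM, median 142. The helicase gene WRN lay at 14.7 to 24.7 CPM, median 19.5, and that of BRIP1, a helicase bound to BRCA1, at 68.9 to 102 CPM, median 84.6. Of the core complex genes, FANCA lay at 44.3 to 71.6 CPM, median 58.3, FANCC at 27.8 to 38.97 CPM, median 33.4, FANCF at 9.18 to 18.7 CPM, median 10.9 and the ligase subunit FANCL at 10.98 to 21.6 CPM, median 15.05. FANCD2 lay at 24.8 to 51.1 CPM, median 38.6. The nuclease scaffold SLX4 lay at 17.3 to 30.9 CPM, median 24.2, MUS81 at 29.04 to 46.1 CPM, median 37.9 and EME1 at 13.6 to 20.7 CPM, median 16.2. A change that did not pass is not shown to be absent: FANCD2 had an SE of 0.31 at 24 h, against 0.10 for XRCC3. FANCL shares 26.6% of its exon bases with VRK2, FANCA 22.4% with ZNF276 and EME1 10.3% with LRRC59, each on the opposite strand.

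The change under MMS was compared between the times by testing the 24 h change minus the 8 h change. It was higher at 24 h in 5 members and lower in none, against 9.13% of all genes in either direction (3.53% higher and 5.6% lower). The 5 were FANCG, with a difference of 0.62 ± 0.11 (adjusted p = 0.00656), RAD51AP1 (0.59 ± 0.12, adjusted p = 0.00941), XRCC3 (0.64 ± 0.14, adjusted p = 0.0132), UBE2T (0.50 ± 0.14, adjusted p = 0.042997) and BARD1 (0.76 ± 0.21, adjusted p = 0.0454). In FANCG, UBE2T and BARD1 the MMS libraries were below DMSO at 8 h and above it at 24 h. In RAD51AP1 they went from near DMSO to well above it. In XRCC3 they were above DMSO at both times, and by more at 24 h. The calls of FANCG, RAD51AP1 and XRCC3 held in all 8 fits without 1 library, whereas UBE2T did not pass in 7 of 8 fits without 1 library (adjusted p from 0.0673 to 0.134), the exception being without DMSO 24 h replicate 1, and BARD1 did not pass in any of the 8 fits without 1 library (adjusted p from 0.0544 to 0.127). RMI1 went the other way, with -0.41 ± 0.14 (adjusted p = 0.0897) and no call, and BRCA2 had -0.40 ± 0.21 (adjusted p = 0.2705). With the block 12 members were higher and 1, RMI1 (0.0187), lower, where 3561 of 13948 genes passed, 1529 higher and 2032 lower. Of the 14 members that rose only at 24 h, 5 passed in this difference and 9 did not. With the block 7 of those 9 passed: FANCM (adjusted p = 0.012995), RAD51C (0.0155), RBBP8 (0.0172), FANCI (0.0181), BLM (0.0217), RAD54B (0.0305) and XRCC2 (0.0486). BRCA1 and FANCE did not pass in either fit (adjusted p = 0.234 and 0.0978 with the block).

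**Figure D4:**
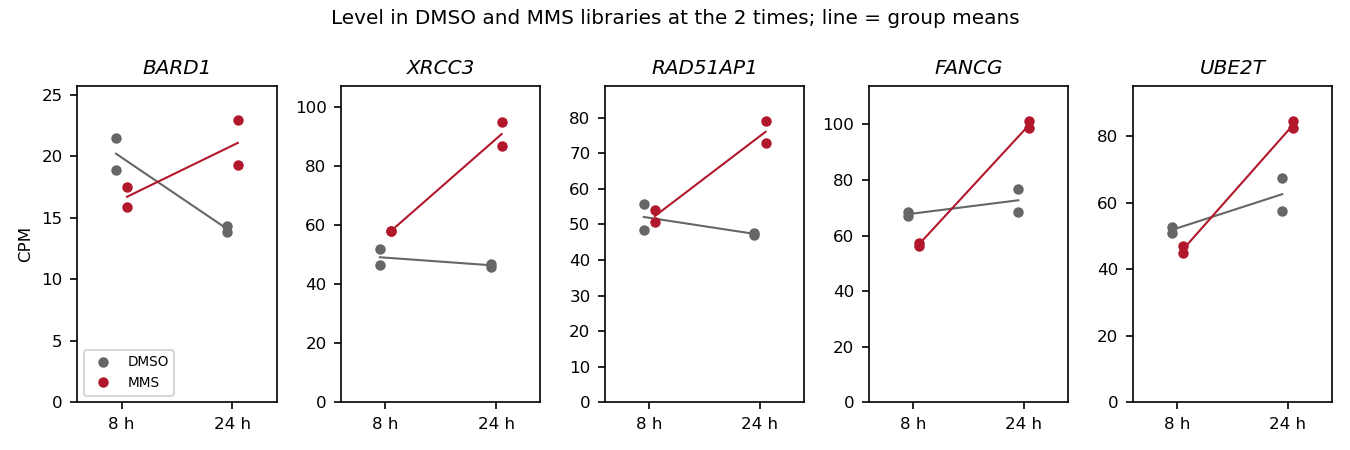
Points are CPM in each DMSO (grey) and MMS (red) library at 8 h and 24 h, and lines join the group means, for the 5 members whose change under MMS differed between the times. In BARD1 the DMSO line falls while the MMS line rises; in FANCG and UBE2T the red points cross from below to above the grey ones.

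The DMSO libraries enter this difference too. DMSO at 24 h against 8 h gave no call among the members in the fit without the block, with 11 at an unadjusted p under 0.05. In that fit 0.66% of all genes passed, 0.366% higher and 0.294% lower. DESeq2 called 3 members, where 527 of all genes passed. With the block edgeR called 6, where 1902 of 13948 genes passed. The members called in these other fits were all lower. The median member change was -0.14. BARD1 in DMSO went from 18.9 and 21.5 CPM at 8 h to 14.4 and 13.9 CPM at 24 h (-0.55 ± 0.15, adjusted p = 0.112; adjusted p = 0.00894 with the block), and NBN from 162 and 162 to 127 and 124 CPM (-0.40 ± 0.09, adjusted p = 0.0672; adjusted p = 0.00526 with the block). BRCA2, RBBP8, FANCE and GEN1 were also lower at 24 h with the block. In the 2 DMSO libraries at 24 h the members summed to 1501 and 1739.8 CPM, with replicate 2 the lower, against 1776 and 1779 CPM at 8 h. Leaving out that replicate 2 lowered the number of members risen under MMS at 24 h. Leaving out MMS replicate 1 lowered it about as far, and the calls over all genes fell in both fits.

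In cells that had sorafenib for 12 h first, MMS gave a like number of calls against sorafenib alone: 9 members rose and 1 fell at 8 h, and 18 rose and none fell at 24 h. Of all genes 24.5% passed at 8 h (13% higher, 11.6% lower) and 36.8% at 24 h (18% higher, 18.8% lower). The medians over members were 0.15 and 0.29. These comparisons use other libraries than those of MMS against DMSO, but from the same pair of experiments. At 8 h RMI1 stood at 78.4 and 89.0002 CPM in the combination against 56.5 and 60.1 CPM under sorafenib (0.50 ± 0.10, adjusted p = 0.00318). BRCA2 stood at 75.6 and 99.1 against 58.5 and 58.9 CPM (0.55 ± 0.15, adjusted p = 0.0161). RAD51D stood at 14.8 and 15.2 against 10.1 and 10.1 CPM (0.54 ± 0.14, adjusted p = 0.0147). Each of these 3 had also risen under MMS alone. FANCF, a core complex adaptor, stood at 18.7 and 14.9 CPM against 10.4 and 10.1 CPM (0.68 ± 0.16, adjusted p = 0.00752), and BARD1 at 13.2 and 18.9 against 22.1 and 23.1 CPM (-0.52 ± 0.15, adjusted p = 0.0261), the 1 member that fell. The RMI1 call held in all 4 fits without 1 library. FANCF did not pass with combination replicate 1 (adjusted p = 0.09104) or sorafenib replicate 2 (0.0533) left out, and RAD51D did not pass in any of the 4 fits without 1 library (adjusted p from 0.0592 to 0.0788). BRCA2 did not pass with sorafenib replicate 1 (adjusted p = 0.08099), sorafenib replicate 2 (0.0777) or combination replicate 2 (0.1501) left out, and BARD1 did not pass with sorafenib replicate 1 (adjusted p = 0.0852), combination replicate 1 (0.165) or sorafenib replicate 2 (0.109) left out. With the block, 14 members rose and 3 fell at 8 h, where 5545 of 13948 genes passed. With only the libraries compared 2 members passed, and 1903 of all genes.

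At 24 h the genes with the smallest p were 3 genes of the BCDX2 and CX3 complexes, RBBP8 and RAD51AP1. XRCC3 stood at 85.4 and 90.5 CPM in the combination against 43.9 and 48.8 CPM under sorafenib (0.88 ± 0.10, adjusted p = 5.81e-05). RAD51C stood at 40.6 and 42.7 against 23.1 and 21.1 CPM (0.87 ± 0.12, adjusted p = 0.000216). XRCC2 stood at 58.3 and 52.9 against 27.04 and 26.95 CPM (1.00 ± 0.14, adjusted p = 0.000273), 1.998-fold and the widest change of any member in any comparison. RBBP8 stood at 181 and 171 against 118.6 and 113 CPM (0.56 ± 0.09, adjusted p = 0.000651). RAD51AP1 stood at 76.1 and 82.2 against 56.6 and 56.9 CPM (0.44 ± 0.08, adjusted p = 0.00145). The calls of these 5 genes, which were picked by their p in this same comparison, held in all 4 fits without 1 library. Between 10 and 15 members rose in those fits.

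Between the times, the change under MMS in sorafenib-treated cells was higher at 24 h in 7 members and lower in 2, against 12% of all genes (4.99% higher and 6.99% lower). FANCG (0.54 ± 0.11, adjusted p = 0.0117), XRCC3 (0.57 ± 0.14, adjusted p = 0.01896), FANCM (0.58 ± 0.14, adjusted p = 0.022001) and UBE2T (0.52 ± 0.14, adjusted p = 0.0326) were higher. FANCF was lower (-0.88 ± 0.22, adjusted p = 0.0244): its combination libraries went from 18.7 and 14.9 CPM at 8 h to 11.1 and 9.79 CPM at 24 h, and its sorafenib libraries from 10.4 and 10.1 to 11.97 and 11.3 CPM. The FANCG call held in all 8 fits without 1 library. XRCC3 did not pass with sorafenib 24 h replicate 1 (adjusted p = 0.0696), sorafenib 8 h replicate 2 (0.077995) or combination 24 h replicate 2 (0.0605) left out, and FANCM did not pass in 5 of 8 fits without 1 library (adjusted p from 0.0503 to 0.0806), the exceptions being without sorafenib 24 h replicate 1 and without combination 8 h replicate 2 and without combination 24 h replicate 2. UBE2T did not pass in 6 of 8 fits without 1 library (adjusted p from 0.0821 to 0.121), the exceptions being without sorafenib 8 h replicate 2 and without combination 8 h replicate 1, and FANCF did not pass in 7 of 8 fits without 1 library (adjusted p from 0.0529 to 0.1102), the exception being without combination 8 h replicate 2. With the block 12 members were higher and 3 lower, where 4238 of 13948 genes passed.

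Sorafenib alone gave no call among the members in edgeR at either time (1 at 8 h and 2 at 24 h at an unadjusted p under 0.05; none with DESeq2 or with the block), where 0.394% and 0.817% of all genes passed. Member changes under sorafenib ran from -0.21 ± 0.12 (RAD52) to 0.25 ± 0.20 (FANCL) at 8 h and from -0.19 ± 0.14 (MUS81) to 0.32 ± 0.17 (FANCB) at 24 h. The combination against MMS alone also called none in edgeR (3 and 0 at an unadjusted p under 0.05; none with DESeq2), against 0.624% and 0.122% of all genes. The 87 genes behind the first share became 644 without combination replicate 2, 11 without MMS replicate 1, 15 without MMS replicate 2 and 19 without combination replicate 1. With combination replicate 2 left out, FANCB was the 1 member called (adjusted p = 0.0404). At 8 h FANCF stood at 18.7 and 14.9 CPM in the combination and 9.98 and 12.4 CPM under MMS (0.54 ± 0.16, adjusted p = 0.158; adjusted p = 0.0199 with the block). FANCB stood at 13.7 and 18.9 against 23.2 and 21.5 CPM (-0.50 ± 0.17, adjusted p = 0.203; adjusted p = 0.0341 with the block). These were the 2 members that passed with the block, where 1326 of 13948 genes passed at 8 h. Whether sorafenib altered the MMS change was tested as an interaction, which edgeR called for no member and 0% of all genes at either time (1 member each at an unadjusted p under 0.05; DESeq2 called no member). Without combination replicate 2 at 8 h the interaction called 28 of all genes and no member. The interaction estimates ran from -0.40 ± 0.24 (FANCB) to 0.52 ± 0.22 (FANCF) at 8 h and from -0.40 ± 0.21 (BRCA2) to 0.27 ± 0.22 (EME1) at 24 h. The sorafenib change differed between the times in no member and 0% of all genes in edgeR (0 members at an unadjusted p under 0.05; DESeq2 called no member).

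Of all genes 26.5% were called under MMS at 8 h and 31.5% at 24 h. Near those shares, other genes of these pathways, 55 tested of 58 listed, had 13 rises and 1 fall at 8 h (25.5% called, median 0.01) and 16 rises and 3 falls at 24 h (34.5%, median 0.16). At 8 h these included TOP3A, the topoisomerase that works with BLM (0.89 ± 0.10, adjusted p = 6.85e-05), PSMC3IP, which stimulates strand exchange (0.89 ± 0.10, adjusted p = 8.17e-05), USP1, which removes ubiquitin from FANCD2 (0.55 ± 0.08, adjusted p = 0.000351), and the helicase RECQL (0.47 ± 0.09, adjusted p = 0.00192). At 24 h they included PSMC3IP (0.86 ± 0.11, adjusted p = 0.000155), TOP3A (0.81 ± 0.10, adjusted p = 0.0002004) and the single-strand binding subunit RPA2 (0.62 ± 0.10, adjusted p = 0.000753) higher, and BRE, of a BRCA1 complex, lower (-1.13 ± 0.16, adjusted p = 0.000374). Of 12 end joining genes, 2 rose at 8 h (16.7% called), POLQ (0.76 ± 0.17, adjusted p = 0.006404) and LIG4 (0.53 ± 0.15, adjusted p = 0.0218). At 24 h 5 rose (41.7%), among them APTX (0.58 ± 0.10, adjusted p = 0.000899), POLQ (0.84 ± 0.18, adjusted p = 0.00374), NHEJ1 (0.47 ± 0.11, adjusted p = 0.00522) and POLM (0.34 ± 0.09, adjusted p = 0.0105).

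Cell cycle genes moved in the same libraries. Of 44 S phase and E2F genes, 9 rose and 4 fell at 8 h (29.5% called, median 0.09), near the 26.5% of all genes called. At 24 h 21 rose and 5 fell (59.1%, median 0.26), against 31.5% of all genes. RRM2, a ribonucleotide reductase subunit, changed by 0.90 ± 0.08 (adjusted p = 1.20e-05) at 8 h and 1.03 ± 0.08 (adjusted p = 1.25e-05) at 24 h, and the licensing factor CDC6 by 0.53 ± 0.07 (adjusted p = 0.000225) and 0.55 ± 0.07 (adjusted p = 0.000234). GINS3 rose (0.72 ± 0.10, adjusted p = 0.000255) and UHRF1 fell (-0.71 ± 0.10, adjusted p = 0.000237) at 8 h, and CHAF1A (0.60 ± 0.08, adjusted p = 0.000184) and CDT1 (0.90 ± 0.12, adjusted p = 0.000212) rose at 24 h. The list summed to 5239 and 5463 CPM in the DMSO libraries at 8 h against 5805 and 6030.2 CPM under MMS, and at 24 h to 4649.9 and 5101 against 6250.04 and 6356 CPM. Of 42 G2 and mitosis genes, 32 fell at 8 h and none rose (76.2% called), and 26 fell and 1 rose at 24 h (64.3%). TOP2A (-1.55 ± 0.13, adjusted p = 7.52e-06), PLK1 (-1.24 ± 0.12, adjusted p = 1.82e-05), KIF20A (-1.27 ± 0.12, adjusted p = 2.02e-05) and CCNA2 (-0.86 ± 0.10, adjusted p = 6.82e-05) fell at 8 h. At 24 h KIF20A (-1.30 ± 0.12, adjusted p = 3.29e-05), CCNB2 (-0.86 ± 0.10, adjusted p = 0.000105), DLGAP5 (-0.93 ± 0.11, adjusted p = 0.000117) and PLK1 (-0.97 ± 0.12, adjusted p = 0.000135) fell. That list summed to 8979.5 and 9484 CPM in DMSO against 5846 and 6048 CPM under MMS at 8 h and 9226 and 9923 against 6995 and 7884 CPM at 24 h. Under sorafenib alone the S phase list summed to 5466 and 5643 CPM at 8 h and 4994 and 5003 CPM at 24 h, against 6261 and 6353 and 6252 and 6528 CPM in the combination. The G2 and mitosis list summed to 9342 and 9996 and 10653 and 10994 CPM under sorafenib, against 5669 and 6288 and 7629 and 7785 CPM in the combination. The part of the cell cycle in the members' changes was not tested. In bulk RNA, a change in the share of cells in a phase and a change in RNA per cell cannot be told apart.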

How the data were processed

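RNA-seq of 16 libraries in 8 groups of 2 was analysed from the deposited files. The authors deposited raw counts per gene. The submitters' processing notes name the tools CASAVA 1.8.2, TopHat2 2.0.8b and HTSeq and the build hg19. The gene models, strand setting, counting mode and HTSeq version are not given in the sources used here. The 5 rows of each file that are no gene were left out: reads in no gene made up 6.88 to 7.94% of a library's total, ambiguous ones 1.03 to 1.18% and those aligned more than once 29.5 to 31.5%.

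CPM were computed from each library's summed gene counts. Counts were tested in edgeR 4.0.16 (R 4.3.3) with TMM factors, the filterByExpr filter (minimum count of 10), 1 mean per group over all 16 libraries, quasi-likelihood tests and Benjamini-Hochberg adjustment over 13948 genes, in 14 comparisons. The script was tested on simulated data. P-values rest on how far the 2 libraries within each group differ. Members and lists were chosen with earlier results of these data known. One gene of the list of other pathway genes is not reported here. Values in every library are given for members past the threshold under MMS at 8 h, at 24 h or in the difference, the others by range. Elsewhere all called members are named up to 5, otherwise the 5 with the smallest p (others where they enter a stated contrast or count were added after their values were seen), and of each other list up to 4 genes with the smallest p.

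Titles start in 2 ways, once per group. Deviations from group means of libraries with the same title start correlated at 0.489 to 0.707 in all 28 pairs of groups (median 0.638), and principal component 2 set the title starts apart. The pairing comes from the titles and this check. The fit without the block (8 residual degrees of freedom, 7 with it) stayed the main one. The biological coefficient of variation, the spread between libraries of a group, was 0.136 without the block and 0.0632 with it. Alternatives were RLE factors, no TMM factor, the block, DESeq2 1.42.0, a mean count of at least 50 in place of the filter, no filter at all, a fit of the compared libraries alone and each library left out, where a lone library is taken to vary as other groups do. Promoters came from RefSeq on GRCh38.p14 and exon overlaps from GENCODE v29 on GRCh38.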

Additional observations from a re-analysis of the deposited data

Results flagged for a closer look

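The change under MMS differed between 24 h and 8 h, by a test of the difference itself, in 5 members without sorafenib and in 9 with it. Values are the 24 h change minus the 8 h change in log2, from edgeR's quasi-likelihood test.

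Without sorafenib the difference was 0.76 ± 0.21, adjusted p = 0.0454 in BARD1, 0.62 ± 0.11, adjusted p = 0.00656 in FANCG and 0.59 ± 0.12, adjusted p = 0.00941 in RAD51AP1. It was 0.50 ± 0.14, adjusted p = 0.042997 in UBE2T and 0.64 ± 0.14, adjusted p = 0.0132 in XRCC3. In sorafenib-treated cells the same 5 genes passed, with 0.78 ± 0.21, adjusted p = 0.0347 in BARD1, 0.54 ± 0.11, adjusted p = 0.0117 in FANCG, 0.41 ± 0.12, adjusted p = 0.0403 in RAD51AP1, 0.52 ± 0.14, adjusted p = 0.0326 in UBE2T and 0.57 ± 0.14, adjusted p = 0.01896 in XRCC3. These comparisons use separate libraries, but from the same pair of experiments and in 1 fit. Libraries with the same title start deviate together across groups, so the comparisons are not independent. In the fit without the block, a further 4 genes passed in sorafenib-treated cells and not in the others. FANCM (0.58 ± 0.14, adjusted p = 0.022001) and RBBP8 (0.47 ± 0.13, adjusted p = 0.0363) were higher at 24 h, and FANCF (-0.88 ± 0.22, adjusted p = 0.0244) and RMI1 (-0.49 ± 0.14, adjusted p = 0.0403) lower. Whether these 4 differ from cells without sorafenib was not tested. RMI1 had -0.41 ± 0.14 (adjusted p = 0.0897) without sorafenib. With the title start as replicate block, FANCM, RBBP8 and RMI1 also passed without sorafenib. RAD51AP1, RBBP8, BARD1 and RMI1 in sorafenib-treated cells did not pass in most fits without 1 library: RAD51AP1 in 6 of 8, BARD1 in 7, RBBP8 in 8 and RMI1 in 7, with adjusted p up to 0.111, 0.0975, 0.111 and 0.155.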

How the results depend on the processing

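With the title start as replicate block, the members called went from 9 to 15 for MMS at 8 h, 10 to 17 for the combination against sorafenib at 8 h, 0 to 2 for the combination against MMS at 8 h, 5 to 13 and 9 to 15 for the difference between times without and with sorafenib, and 0 to 6 for DMSO at 24 h against 8 h. The block changed no other count of members by over 1.5 times. With only the libraries compared the counts were 10 for MMS at 24 h, 2 for the combination against sorafenib at 8 h, and 3 and 4 for the differences between times without and with sorafenib. The difference without sorafenib gave 9 with no TMM factor. DMSO at 24 h against 8 h gave 3 with DESeq2 and 1 with a mean count of at least 50. Leaving out 1 library gave 2 to 5 for MMS at 8 h, 10 to 20 for MMS at 24 h, 1 to 5 and 10 to 15 for the combination against sorafenib at 8 h and 24 h, 0 to 1 for the combination against MMS at 8 h, and 3 to 8 and 2 to 7 for the differences without and with sorafenib. The cause was not tested. No named member's called change reversed sign under any alternative. Among members that did not pass, the sign turned in some setting for 9 of 27 under MMS at 8 h and 8 of 15 at 24 h. No scaling moved the median of all genes by over 0.1.

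Over all genes tested, the block took the calls from 3694 to 6036 for MMS at 8 h, from 4394 to 6730 at 24 h, from 1273 to 3561 and 1671 to 4238 for the differences between times without and with sorafenib, from 3420 to 5545 for the combination against sorafenib at 8 h, from 55 to 702 and 114 to 1001 for sorafenib at 8 h and 24 h, from 87 to 1326 and 17 to 283 for the combination against MMS, and from 92 to 1902 for DMSO at 24 h against 8 h. With only the libraries compared they were 2714 for MMS at 24 h, 1903 for the combination against sorafenib at 8 h, 776 for the difference without sorafenib, 4 and 5 for sorafenib, 29 and 5 for the combination against MMS, and 0 for DMSO. DESeq2 gave 176 and 290 for sorafenib, 358 and 86 for the combination against MMS, and 527 for DMSO. No filter gave 101 for sorafenib at 8 h and 139 and 43 for the combination against MMS, and a mean count of at least 50 gave 166 for DMSO. Interactions went from 0 to 7 and 4 with the block and to 1 and 1 with DESeq2. At 24 h they went to 1 with no TMM factor and to 1 with no filter. Leaving out 1 library gave 2274 to 2619 for MMS at 8 h, 2466 to 3492 at 24 h, 1984 to 2971 and 3265 to 3805 for the combination against sorafenib, 5 to 17 and 12 to 75 for sorafenib, 11 to 644 and 3 to 6 for the combination against MMS, 0 to 28 and 0 for the interactions, 577 to 918 and 754 to 1531 for the differences without and with sorafenib, and 0 to 10 for DMSO. For MMS at 24 h FANCD2, at 24.8 to 51.1 CPM, had an SE of 0.31, above the 0.12 of RAD52, at 8.43 to 12.8 CPM. Whether SEs follow level over all members was not tested.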

Other observations

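The libraries of the 2 title starts differed for some members in every group, a comparison made after the data were seen. FANCD2 was higher in the MDA231 library than in the MDAMB231 library of the same group in 8 of 8 groups, with a median log2 difference of 0.45 and a range of 0.18 to 0.86. FANCC was also higher in 8 of 8 groups (median 0.10), and FANCE was lower in 8 of 8 (median -0.15). These are 2 of 36 members higher in all groups (5.56%) and 1 lower (2.78%), against 9.03% and 14.1% of all genes tested. FANCL (0.27), BRCA1 (0.26), EXO1 (0.24) and BLM (0.21) were higher in 7 of 8 groups. In FANCD2 the spread between title starts exceeded its change under MMS at both times (0.00 ± 0.30 and -0.06 ± 0.31 SE).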
